A study of Mus musculus with 2 samples.

Results

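The genes described here encode the folding and quality control machinery of the endoplasmic reticulum (ER) and the sensors and outputs of the unfolded protein response. They were given as a list of 38 gene symbols and read through the platform's gene names, each gene by its brightest probe set, the short-oligonucleotide reporter whose log2 signals had the highest mean. Of the 38 genes, 37 had a probe set of 1 gene, out of 12393 such genes on the array. The remaining gene, Sec61g, was named only on a probe set shared with other genes and was not read. One symbol, Ero1l, was found under its present name, Ero1a. A ratio was computed for 36 of the genes: 34 were over the floor of 14.0 signal units on both arrays, and 2 (Trib3 and Derl3) were over it on the control array only, so that their ratios are bounds. Ern1 was under the floor on both arrays.

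Uterine epithelial cells were taken from pregnant mice on the morning of day 4 and their RNA was read on an Affymetrix Mouse Genome 430A 2.0 array, 1 array for the control group and 1 for the Stat3 knockout group. The control mice carried the floxed Stat3 allele according to the sample title, which both samples share, and the genotype label separates them. The design text gives n = 3 for each sample and states that RNA was pooled; it does not say what the 3 were. Neither group had a treatment. Which Cre driver removed Stat3, and how old the mice were, is not stated in the labels. The protocol for RNA extraction speaks of stromal cells of human endometrium, whereas the organism, source and cell type labels name mouse uterine epithelium. Values are MAS5 signals on a linear scale. With 1 array per group there is no replicate check, so differences are given as sizes, with no p-value. In RNA from many cells, a lower signal from fewer cells of a type and from less RNA per cell cannot be told apart.

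Proteins bound for secretion, the cell surface or the secretory organelles enter the ER through the SEC61 translocon and fold there with the help of the chaperone BiP, the lectin chaperones calnexin and calreticulin, and disulfide isomerases. When unfolded protein accumulates, the sensors IRE1, PERK and ATF6 start the unfolded protein response: IRE1 splices Xbp1 mRNA, PERK slows translation and favours ATF4, and cleaved ATF6 enters the nucleus. The transcription factors so produced act on chaperone and degradation genes, many through a promoter motif called the ER stress response element. Uterine epithelium is a secretory tissue, and its secretions support the embryo before attachment.

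Promoters are shown first because genes that carry the same element did not differ in the same way between the arrays. The element was searched as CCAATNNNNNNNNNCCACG on both strands of RefSeq promoter windows (GRCm38.p6) that run from 250 bases before to 50 bases after a gene's start. It was found in 9 of the 32 genes of the list that had a window, against 0.119% of all 32851 windows (39 windows). The first count is of genes and the second of windows. The list was chosen by function, and the arrays play no part in either count. As described above, the element is known from chaperone and degradation genes, so its high share among them is not an independent finding. Below, the match is in capitals, in the gene's own 5′ to 3′ direction, so that a match on the opposite strand reads from CGTGG to ATTGG; 25 bases are kept on each side, and only bases before the start are shown. Of the genes printed, Hspa5, Pdia6 and Creld2 were lower in the knockout, Hsp90b1 and Calr were nearly level, and Syvn1 was higher. Canx, Dnajc3 and Derl3 also held the element, are not printed and were lower. In all, 7 of the 9 genes had a lower signal in the knockout, against 46.6% of all genes with a ratio. Of all the ER genes with a ratio, 27 of 36 were lower. The 7 include Calr, and Derl3, whose ratio is a bound.
Hspa5, chr2:34772000-34772068, plus strand: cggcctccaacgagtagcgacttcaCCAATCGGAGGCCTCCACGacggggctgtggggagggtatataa
Pdia6, chr12:17266466-17266534, plus strand: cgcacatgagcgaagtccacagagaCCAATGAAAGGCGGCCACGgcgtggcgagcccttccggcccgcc
Creld2, chr15:88819495-88819563, plus strand: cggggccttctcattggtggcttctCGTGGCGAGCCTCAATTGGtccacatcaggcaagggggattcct
Hsp90b1, chr10:86705508-86705681, minus strand: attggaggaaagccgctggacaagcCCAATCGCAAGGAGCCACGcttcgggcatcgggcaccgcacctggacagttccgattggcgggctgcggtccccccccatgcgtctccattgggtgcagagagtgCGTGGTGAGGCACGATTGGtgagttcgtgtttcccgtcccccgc
Calr, chr8:84847050-84847118, minus strand: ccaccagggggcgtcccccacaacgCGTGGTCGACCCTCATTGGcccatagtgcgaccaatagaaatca
Syvn1, chr19:6046507-6046575, plus strand: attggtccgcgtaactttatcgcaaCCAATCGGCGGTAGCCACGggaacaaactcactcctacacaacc

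Most of the ER genes were lower in the knockout, and by less than 2-fold. Of the 36 genes with a ratio, 27 (75%) had a log2 ratio (knockout over control) below 0, against 46.6% of the 8304 genes on the array with a ratio. Their median log2 ratio was -0.23, against 0.05 for all genes with a ratio. At least 2-fold lower were 3 of the 36 (Hspa5, Manf and Sdf2l1), against 9.92% of all genes, and at least 2-fold higher were 2 (Ppp1r15a and Syvn1), against 7.37%. Both counts past 2-fold were therefore close to the shares of the whole array, while the share below 0 was above it. At a lower limit of 1.5-fold, 7 genes were lower, against 18.6% of all genes, and 4 were higher, against 19.4%. The 7 lower genes were Sdf2l1, Hspa5, Manf, Pdia6, Creld2, Dnajb11 and Ssr1, and the 4 higher ones Syvn1, Ppp1r15a, Dnajb9 and Sel1l.

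**Figure D1:**
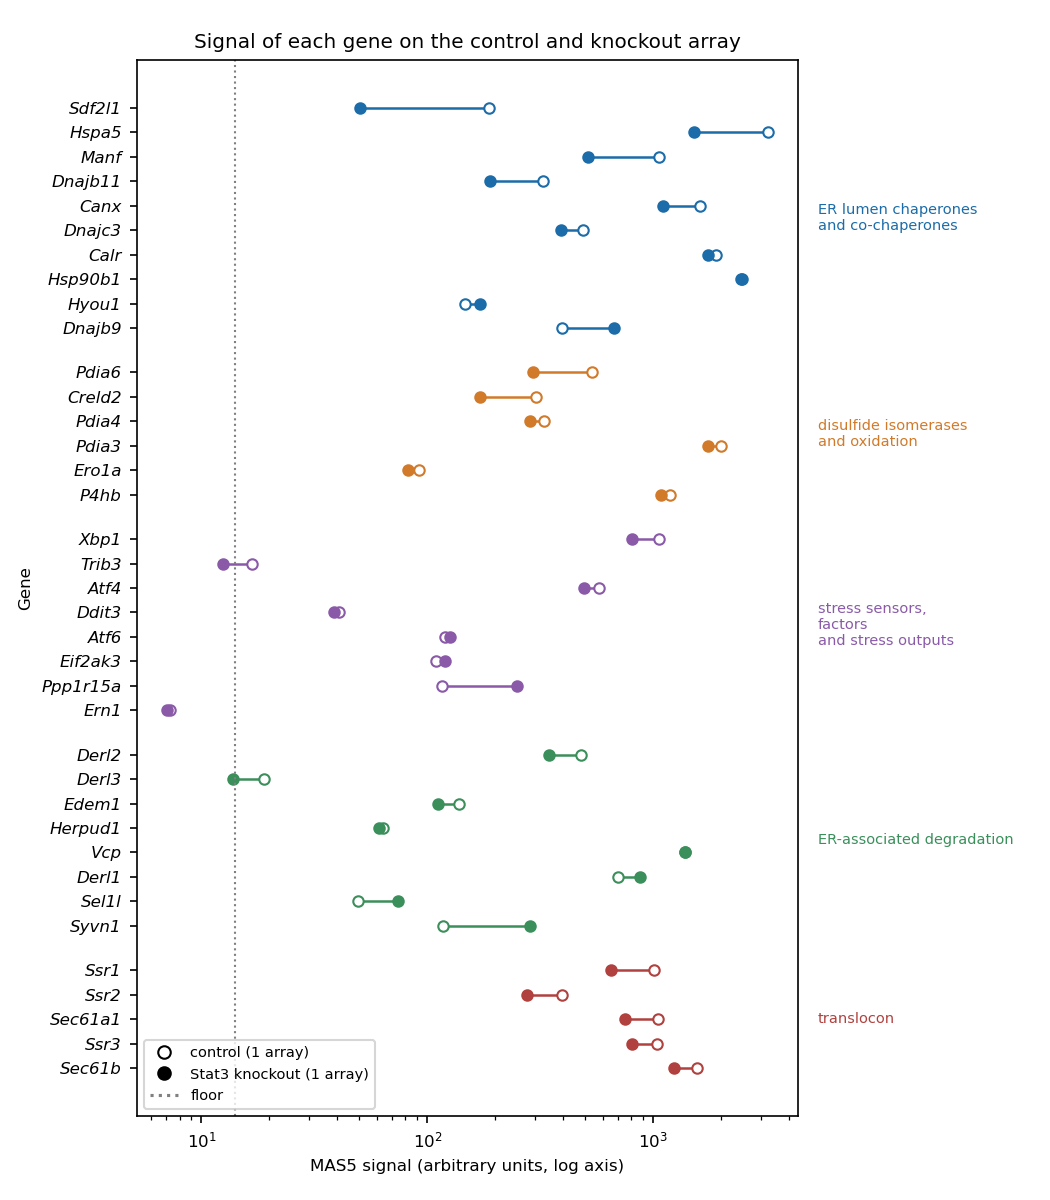
MAS5 signal (log axis) of the 37 genes with a probe set of 1 gene, on the control array (open circles) and the Stat3 knockout array (filled circles), grouped by role; the dotted line is the floor of 14.0. Sdf2l1, Hspa5 and Manf have the widest gaps to the left, Syvn1 and Ppp1r15a to the right, and all 5 translocon genes are lower on the knockout array.

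Among the 10 chaperones and co-chaperones, 7 were below 0, 3 of them past 2-fold, and the median log2 ratio was -0.43. Hspa5 encodes BiP, the ER Hsp70 that binds unfolded chains and holds the stress sensors inactive. Its signal was 3219 on the control array and 1521 on the knockout array, or 2.12-fold lower (log2 ratio -1.08). A dimmer Hspa5 probe set had signals of 1671 and 741, or 2.25-fold lower, so that both probe sets were past 2-fold. Their names mark both as reporters that can read several transcripts.

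Sdf2l1, which encodes an ER protein found in complex with BiP and its J-domain partners, had the lowest ratio of the list. The signals were 187 and 50.3, or 3.72-fold lower (log2 ratio -1.90), leaving 26.9% of the control signal. Manf encodes a secreted and ER-retained protein that binds BiP; its signals were 1060 and 516, or 2.05-fold lower (log2 ratio -1.04). Dnajb11, the J-domain co-chaperone ERdj3 that delivers unfolded chains to BiP, had signals of 326 and 189 (log2 ratio -0.79). Sdf2l1, Manf and Dnajb11 each have 1 probe set on the array, so no second reading exists for them.

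Other lumenal chaperones stayed near level. Hsp90b1, which encodes GRP94, the ER form of Hsp90, had signals of 2440 and 2477 (log2 ratio 0.02), and a dimmer probe set gave 0.05. Calr, the gene of the soluble lectin chaperone calreticulin, had signals of 1905 and 1746 (log2 ratio -0.13). Canx, which encodes its membrane-bound counterpart calnexin, was somewhat lower, with 1605 and 1104 (log2 ratio -0.54) and ratios of -0.40 and -0.92 in dimmer probe sets. Thus Hspa5 differed by more than 2-fold while Hsp90b1, a gene of the same compartment, was level (102% of the control signal) on the same arrays.

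Dnajc3, the co-chaperone p58IPK that also inhibits PERK, had signals of 487 and 390 (log2 ratio -0.32). Hyou1, which encodes GRP170, a nucleotide exchange factor of BiP, had 147 and 170 (log2 ratio 0.21). Dnajb9, which encodes the J-domain co-chaperone ERdj4, an XBP1 target that turns IRE1 off, went the other way from Dnajb11, with signals of 394 and 669, or 1.70-fold higher (log2 ratio 0.76). The co-chaperones of BiP thus lay on both sides of 0, from -1.90 for Sdf2l1 to 0.76 for Dnajb9.

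All 6 genes of disulfide formation were below 0, none past 2-fold, with a median of -0.20. Pdia6, which encodes the isomerase P5 that attenuates IRE1, had signals of 538 and 293 (log2 ratio -0.88, 1.84-fold lower). Creld2, which encodes an ER stress-inducible protein with isomerase activity, had 302 and 171 (log2 ratio -0.82, 1.77-fold lower). These were the only members of the group past 1.5-fold. The abundant isomerase genes lay closer to 0: Pdia3, which encodes the glycoprotein isomerase ERp57, had 1988 and 1748 (log2 ratio -0.19). P4hb, which encodes protein disulfide isomerase itself, had 1185 and 1082 (-0.13), and Pdia4, which encodes ERp72, had 329 and 285 (-0.21). Ero1a, the oxidase that recharges the isomerases, had 92.1 and 82.3 (-0.16), and its other probe sets gave -0.51 and 0.29, on both sides of 0.

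**Figure D2:**
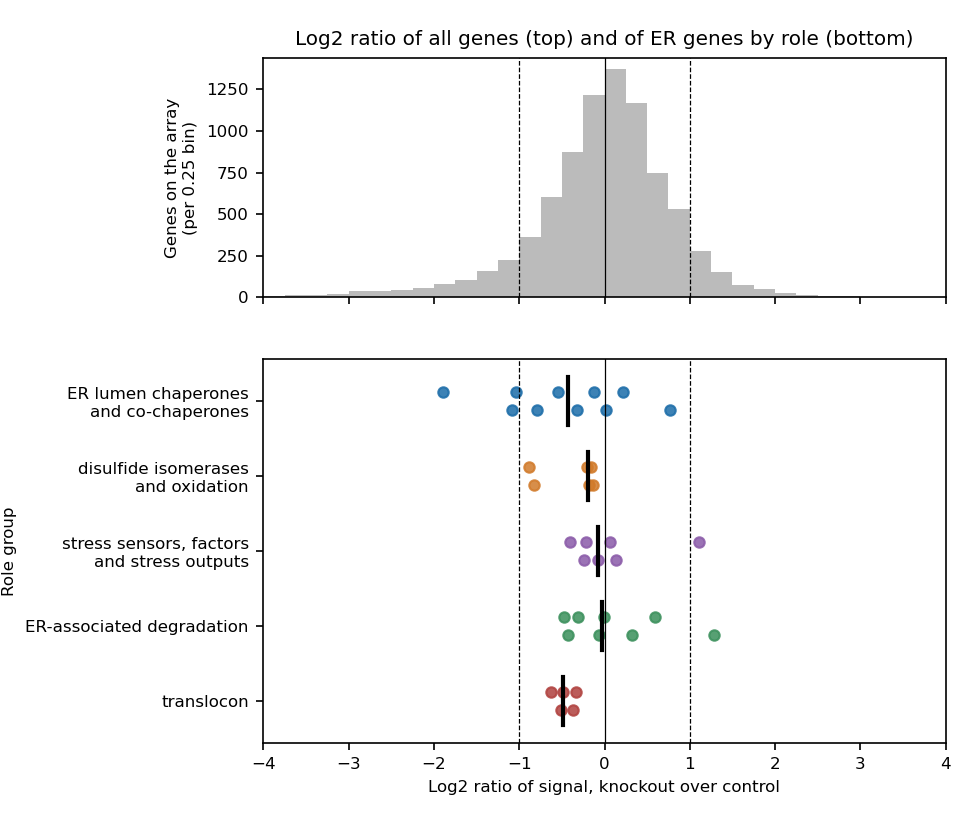
Log2 ratio of signal, knockout over control, for all 8304 genes with a ratio (top, genes per bin of 0.25) and for the 36 ER genes by role (bottom, 1 point per gene, black bar for the median of the group). Dashed lines mark 2-fold; the isomerase and translocon points lie left of 0, and the sensor and degradation groups each have 1 point right of the 2-fold line. Genes of the whole array below -4 or above 4 lie outside the plotted range, most of them on the lower side.

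The sensors and their transcription factors showed small differences. Eif2ak3, which encodes PERK, had signals of 109 and 120 (log2 ratio 0.13), and Atf6 120 and 125 (0.07). Ern1, which encodes IRE1 alpha, had signals of 7.22 and 7.005, both under the floor, and received no ratio. Xbp1 had 1058 and 803 (log2 ratio -0.40), and its 3 dimmer probe sets were also below 0, from -0.58 to -0.21. These probe sets read the summed signal of Xbp1 and were not used to tell its spliced from its unspliced form. Atf4 had 574 and 493 (log2 ratio -0.22), and a dimmer probe set gave -0.02. ATF4 is controlled mainly through its translation, which RNA signals do not read.

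The outputs of the PERK branch did not share a direction. Ddit3, which encodes the pro-apoptotic factor CHOP, had signals of 40.7 and 38.5 (log2 ratio -0.08). Trib3, a pseudokinase gene downstream of ATF4 and CHOP, had 16.7 and 12.5, the second under the floor, which made it at least 1.19-fold lower. Ppp1r15a, which encodes GADD34, the phosphatase subunit that reverses the translation block, had 116 and 249, or 2.15-fold higher (log2 ratio 1.11), on its only probe set. Ppp1r15a is also known as a quick responder to handling of cells. A list of 10 immediate early genes was chosen after its value was seen. In that list, 10 of 10 were above 0, against 53.4% of all genes. At least 2-fold higher were 6 of them, against 7.37% of all genes. The summed signal of these 10 genes was 5487 on the control array and 11158 on the knockout array; their part in the Ppp1r15a value was not tested. For the whole group of 7 genes with a ratio, the median was -0.08, and it was above 0 with the floor at the 60th percentile.

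In ER-associated degradation, which extracts misfolded proteins to the proteasome, 5 of 8 genes were below 0 and the median was -0.03, above 0 when the arrays were centred on their medians. Syvn1, which encodes HRD1, the ubiquitin ligase at the core of the pathway, had signals of 117 and 285, or 2.43-fold higher (log2 ratio 1.28), the highest ratio of the list, on its only probe set. Sel1l, which encodes the adaptor that stabilises HRD1, was also above 0, with 49.2 and 74.4 (log2 ratio 0.60) and 0.51 and 0.08 in dimmer probe sets. Derl1, a derlin gene of the same membrane complex, had 698 and 871 (0.32), and all its 4 probe sets were above 0, from 0.17 to 0.38. Over the alternatives, the Sel1l ratio ran from 0.21 to 0.66. These 3 genes, singled out after their values were seen, encode parts of the same ligase complex and lay above 0, unlike most chaperones. Herpud1, a scaffold of that complex, did not.

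The other degradation genes did not follow Syvn1, Sel1l and Derl1. Herpud1, a stress-inducible scaffold of the HRD1 complex, had signals of 63.4 and 60.8 (log2 ratio -0.06). Edem1, a lectin that marks glycoproteins for degradation, had 138 and 111 (-0.30), with -0.66 in a dimmer probe set. Derl2 had 481 and 346 (-0.47) on its brighter probe set and 100.2 and 125 (0.32) on the dimmer one, so its direction is not settled by these arrays. Derl3, a derlin of strongly secreting cells, had 18.9 and 13.8, the second under the floor, which made it at least 1.35-fold lower. Vcp, the ATPase that pulls substrates out of the membrane, had 1386 and 1382 (log2 ratio -0.0034).

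All 5 translocon genes read were lower in the knockout by similar amounts, from 1.26-fold to 1.55-fold, with a median log2 ratio of -0.48. Sec61a1, which encodes the channel-forming subunit, had signals of 1053 and 753 (log2 ratio -0.48), and Sec61b, a small subunit, 1559 and 1240 (-0.33). The translocon-associated proteins Ssr1, Ssr2 and Ssr3, which assist insertion of some signal sequences, had 1007 and 650 (-0.63), 394 and 276 (-0.51), and 1043 and 807 (-0.37). Dimmer Ssr1 probe sets gave -0.96 and -0.37, whereas those of Sec61a1 ranged from -0.48 to 0.21. The lower Sec61a1 value therefore rests on its 2 brightest probe sets, and the mean over its 6 probe sets was -0.14.

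**Figure D3:**
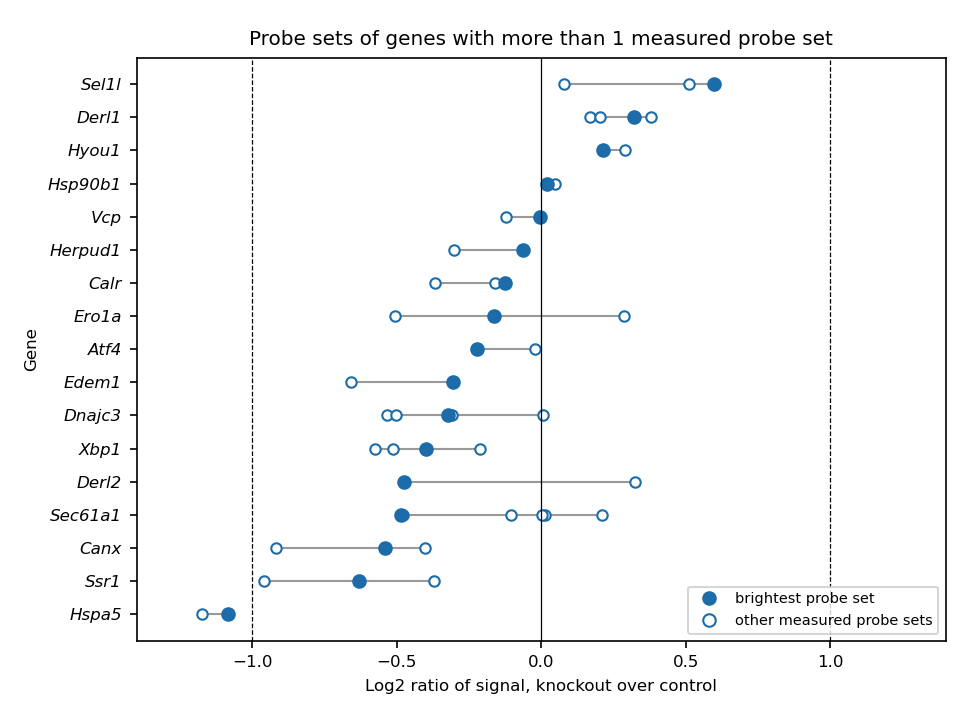
Log2 ratio of every measured probe set for the 17 genes with more than 1, with the brightest probe set filled and the others open; dashed lines mark 2-fold. Both Hspa5 probe sets lie left of the 2-fold line, and Ero1a, Dnajc3, Derl2 and Sec61a1 have probe sets on both sides of 0.

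Disagreement between probe sets of a gene is the only error that these arrays give. Among the ER genes with at least 2 probe sets over the floor on both arrays (17 genes), log2 ratios of the same gene had a pooled SD of 0.24, against 0.31 over 2853 such genes of the whole array. In 13 of the 17, all measured probe sets lay on the same side of 0, and in 4 they lay on both sides. This was close to the whole array, where 24.6% of 3237 genes with 2 or more measured probe sets had them on both sides. A difference such as that of Calr, Pdia3 or Atf4 is within this spread, and those of Hspa5, Sdf2l1, Manf, Syvn1 and Ppp1r15a are more than 3 times as large as either SD. The spread was not measured on Sdf2l1, Manf, Syvn1 and Ppp1r15a, which have 1 probe set each, and it covers neither animals nor arrays.

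The 9 genes whose promoter window held the ER stress response element lay on both sides of 0, from -1.08 for Hspa5 to 1.28 for Syvn1, the highest gene of the list. In 7 of the 9 the log2 ratio was below 0, against 46.6% of all genes: Hspa5, Pdia6, Creld2, Canx, Derl3, Dnajc3 and Calr. The median of the 9 was -0.43. Hsp90b1 carries 2 matches, shown above, and lay at 0.02. Among the 21 genes of the list with a window, a ratio and no match, 17 were below 0 and the median was -0.21. Sdf2l1, the lowest gene of the list, was among those without a match to these letters. Outside the list, 4 further genes on the array had both a match and a ratio. All 4 were above 0, against 53.4% of all genes: Alg12 (0.30), the ER oxidase gene Ero1b (0.87), Pan2 (0.97) and Spats2l (1.31). A match is a string of letters and not a measured binding site.

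**Figure D4:**
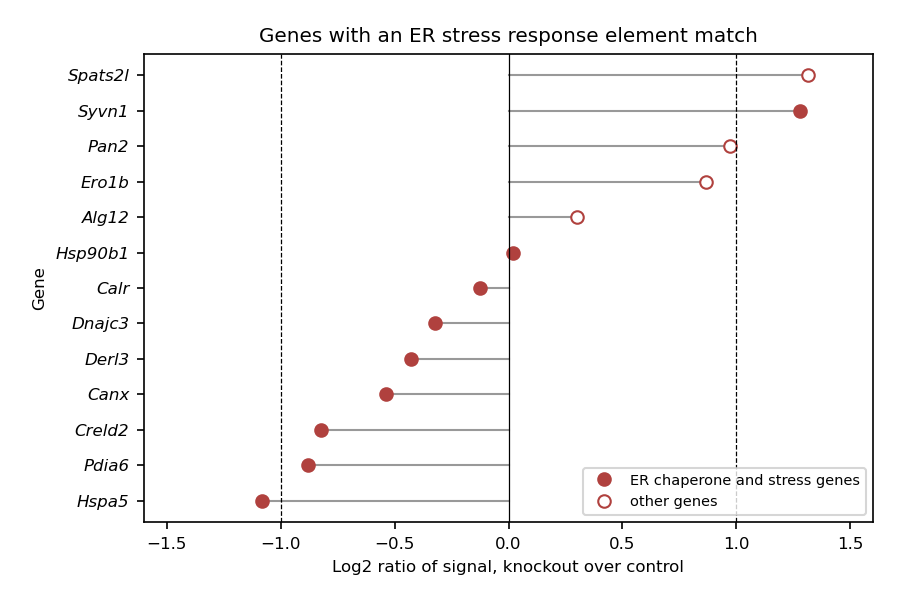
Log2 ratio of signal, knockout over control, for the 13 genes on the array with a ratio and an ER stress response element match in the promoter window; filled points are genes of the ER list and open points other genes. Points lie on both sides of 0, from Hspa5 at -1.08 to Spats2l at 1.31.

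Other motifs were rarer among these genes. The related element ATTGGNCCACG, whose ATTGG is the reverse complement of the CCAAT above, was found in Dnajb11 and Herpud1, against 0.0365% of all windows. In Dnajb11 it lies just after the start. Herpud1 alone of the list held TGATGCAA, a form of the C/EBP-ATF element read by ATF4, against 0.895% of all windows. The STAT element TTCNNNGAA, which reads the same on both strands, was found in Eif2ak3 and Sec61g, 2 of 32 genes, against 8.30% of all windows. Hspa5, Sdf2l1 and Manf were not among the genes with this match; Manf had no window in the table.

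Other genes of the secretory and stress pathways were read from 10 lists with 189 names, 160 of which had a ratio. Past 2-fold, 12 of these 160 genes were lower, against 9.92% of all genes, and 7 higher, against 7.37%, so neither count was above the array's share. Below 0 lay 83 of them, against 46.6% of all genes, with a median of -0.03. The oligosaccharyltransferase, the enzyme that attaches N-glycans beside the translocon, came closest to the translocon genes: 8 of 11 genes were below 0, with a median of -0.34. Krtcap2, a small subunit, had signals of 627 and 306 (log2 ratio -1.03), Stt3b, a catalytic subunit, 1373 and 863 (-0.67), and Rpn1 1915 and 1551 (-0.30). Krtcap2 was within 2-fold when the arrays were centred on their medians or its probe sets were averaged. Among 16 other translocation genes, 8 were below 0 and the median was 0.0044; Srprb, the membrane anchor of the signal recognition particle receptor, was 2.07-fold lower (92.7 and 44.8) but within 2-fold after the same centring or averaging, and the signal peptidase genes Spcs1 and Sec11a had 1755 and 1719, and 1591 and 1635.

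Further ER folding enzymes differed in both directions. Prdx4, the ER peroxiredoxin, had signals of 726 and 220, or 3.30-fold lower, although its dimmest probe set gave -0.07. Pdia5 was 2.21-fold lower (42.1 and 19.1) but within 2-fold with the floor value added to both signals, and it had no ratio with the floor at the 60th percentile. Txndc5, which encodes the isomerase ERp46, was 2.00-fold higher (395 and 790), a value at the limit that loess scaling put under it. Selenof and Tmx1 had 1236 and 1656, and 647 and 630. Fkbp11, a prolyl isomerase gene of secretory cells, had 56.6 and 3.88, the second under the floor, and was at least 4.03-fold lower. Dnajc1, a membrane-bound J-domain partner of BiP, was 2.57-fold higher (228 and 586), and Ppib and Fkbp2 had 1993 and 1772, and 486 and 377. In the list of glycoprotein folding and sorting, with 8 of 12 genes below 0, Mogs, which encodes the glucosidase that trims the first glucose, was 2.18-fold lower (274 and 125), and Mlec and Mcfd2 had 475 and 589, and 382 and 362.

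**Figure D5:**
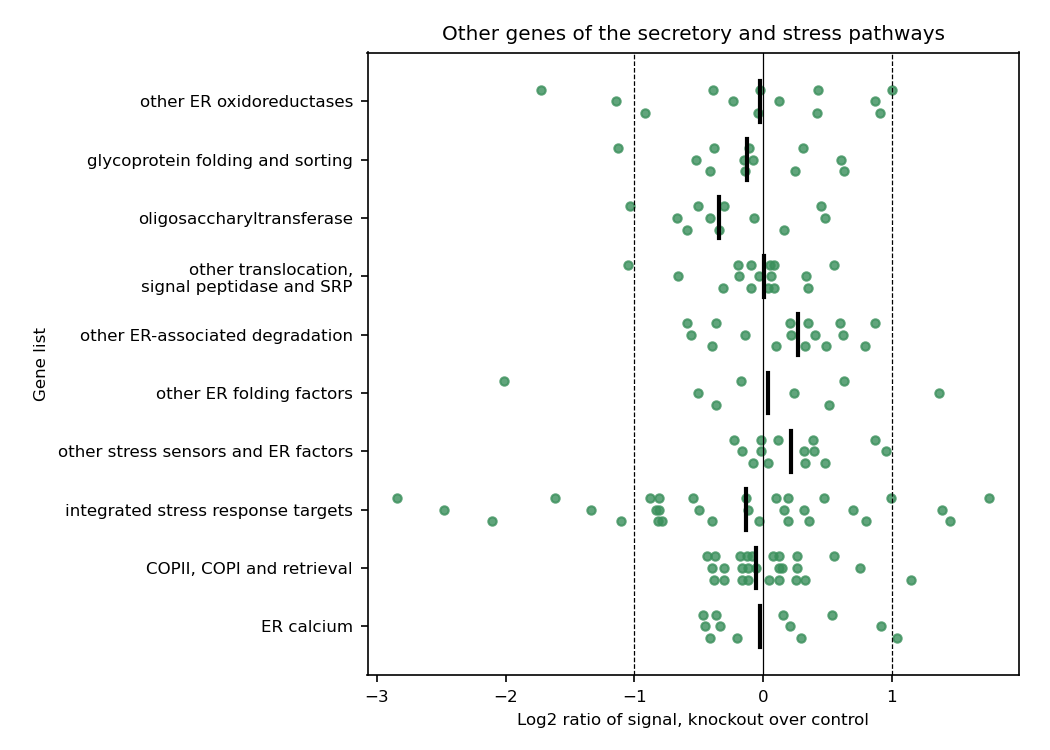
Log2 ratio of signal, knockout over control, for 160 further genes in 10 lists of the secretory and stress pathways (1 point per gene, black bar for the median of the list, dashed lines at 2-fold). Medians run from -0.34 for the oligosaccharyltransferase to 0.27 for other ER-associated degradation genes, and the targets of the integrated stress response have the widest scatter.

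Of 16 further degradation genes, 11 were above 0, against 53.4% of all genes, with a median of 0.27 and none past 2-fold; Selenos had 462 and 649, and Ube2g1 518 and 598. Of 14 other sensors and ER-resident factors, 9 were above 0, against the same 53.4% of all genes, with a median of 0.22. In either direction, 0 were past 2-fold. Tmbim6, an ER membrane cell death inhibitor, had 1332 and 1857, and Mbtps1, the protease that first cleaves ATF6, 689 and 904.

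Targets of the integrated stress response, many of them amino acid and aminoacyl-tRNA synthetase genes under ATF4, scattered widely around a median of -0.13. Past 2-fold, 6 of the 31 genes were lower, against 9.92% of all genes, and 3 higher, against 7.37%. Phgdh, the first enzyme of serine synthesis, was 7.18-fold lower (149 and 20.7), Nupr1, a stress-induced chromatin protein gene, 5.57-fold lower (113 and 20.2), and Stc2, a secreted glycoprotein gene, at least 4.31-fold lower (60.5 and 10.9, under the floor). The 4 Phgdh probe sets had log2 ratios from -2.84 to -1.36. With the floor at the 60th percentile, Nupr1 was within 2-fold, and Stc2, like Fkbp11, had no ratio. Vldlr, a lipoprotein receptor gene, was 3.37-fold higher (261 and 880). The other genes past 2-fold are named after their values were seen. Lower were Ddit4, an inhibitor of mTORC1 (492 and 160.3), Eif4ebp1, a translation repressor gene (90.7 and 35.9), and the amino acid transporter gene Slc7a5 (196 and 90.95). Eif4ebp1 was within 2-fold on its other measured probe set (log2 ratio -0.998) and with the floor at the 60th percentile. Slc7a5, read on its only probe set, was just within 2-fold with the floor value added to both signals. Higher were the synthetase gene Wars (175 and 479) and Cth, an enzyme gene of cysteine synthesis (102 and 266). The synthetase genes Gars and Nars had 1101 and 1257, and 1054 and 974.

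Transport between ER and Golgi was nearly level, with a median of -0.05 over 27 genes. Sec23b, a COPII coat subunit gene, was the exception past 2-fold, with signals of 1940 and 4299, or 2.22-fold higher, on its only probe set. The retrieval receptor genes Kdelr2 and Kdelr1, which return KDEL-tailed chaperones such as BiP to the ER, had 1464 and 1112, and 787 and 859. Of 12 ER calcium genes, 6 were below 0. Stim1, the ER calcium sensor, was 2.06-fold higher (74.4 and 153), but its other probe set was within 2-fold (log2 ratio 0.87). It was also within 2-fold under loess scaling, with its probe sets averaged and with the floor value added to both signals. Atp2a2 and Itpr2, a calcium pump and a release channel, had 1460 and 1792, and 790 and 1488.

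The arrays as a whole were at a common scale, with trimmed mean signals of 150.1 on both. Stat3 was 3.12-fold lower in the knockout on its brightest probe set (582 and 186) and 2.69-fold lower on another. Epithelial markers were read on both arrays, with summed signals of 21642 and 21400 over 11 genes, of which Spdef was under the floor on both arrays. These sums are carried by a few bright genes; Krt7 (1592 and 460) and Elf3 (842 and 432) were 3.46-fold and 1.95-fold lower in the knockout. Stromal markers had summed signals of 2604 and 3589 over 10 genes, and macrophage and dendritic cell markers 471 and 699 over 8, with Hand2 and Itgax under the floor on both arrays. The part of stromal and macrophage RNA in the ER gene values was not tested. The B and plasma cell list summed to 354 and 73.0 over 7 genes, of which Sdc1, which epithelia also express, gave 273 and 32.4. Jchain had 25.7 and 10.8 and Cd79b 44.5 and 7.79, both over the floor on the control array only, while Cd79a, Ms4a1, Pou2af1 and Irf4 were under it on both arrays. The part of plasma cell RNA in the ER gene values was not tested. Markers of neutrophils and erythroid cells were all under the floor on both arrays, and 5 of 6 endothelial, 4 of 6 smooth muscle and 5 of 7 T and NK cell markers were.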

How the data were processed

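The deposited values are 1 intensity per probe set and array, which the authors made with MAS5 in Affymetrix Expression Console 1.1, per the submitters' processing notes; their linear scale and common trimmed mean show that they were scaled before deposit. Neither detection calls nor single probes were used here; a hybridisation batch is not given in the sources used here. The number of arrays limits the precision.

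Of 22690 probe sets, 64 were controls and 20380 were paired with 1 gene by the platform annotation; some of its names may be outdated. Symbols were updated by gene ID through RefSeq (GRCm38.p6). Signals under the floor, the 40th percentile of all signals other than controls, were set to it before the log2 ratio, and genes under it on both arrays (4089) got no ratio. Ratios against the floor are written "at least". Calls are at 2-fold. No test was made.

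The ER genes, the other lists and the alternatives were chosen with earlier results of these data known. Every ER gene is named; of each other pathway list, up to 4 genes past 2-fold with the largest ratio and the 2 others with the highest signal. Software was Python 3.11.15, pandas 2.3.3 and statsmodels 0.14.6 (loess span 0.3), tested on simulated data. The 12 alternatives changed scaling, floor, probe set rule or fold limit.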

Additional observations from a re-analysis of the deposited data

How the results depend on the processing

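No paired analysis was possible because each group has 1 array. Between scalings of the arrays (median centring, quantile, loess), 25 to 28 of the 36 ER genes were below 0, and their median log2 ratio ran from -0.37 to -0.18 over all alternatives. Centring on the medians put Manf within 2-fold (log2 ratio -0.97); Hspa5, Sdf2l1, Syvn1 and Ppp1r15a stayed past 2-fold under each alternative that read them. Hsp90b1, Atf6, Herpud1 and Vcp, all close to 0, and Derl2 changed sign under at least 1 alternative. With the 1.5-fold limit, 7 ER genes were lower and 4 higher, against 1541 and 1607 genes of the array; with the 3-fold limit, 1 and 0, against 401 and 143. The second brightest probe set, which exists for 17 ER genes, gave 1 lower, 0 higher and 12 below 0, with 248 lower and 258 higher genes on the array. Leaving out probe sets shared between transcripts removed Hspa5, both of whose probe sets are of that kind. For the whole array, no floor gave 1927 higher and 1774 lower genes, the floor at the 60th percentile 346 and 449, and the floor at the 20th percentile 1094 higher. Ratios of Trib3 and Derl3 are limited by low signal.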
